A study of Mus musculus with 28 samples.

Results

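Cytosolic ribosomal protein genes encode the protein part of the ribosome that translates nuclear mRNAs in the cytoplasm. They were taken by symbol, as every listed gene named Rpl or Rps followed by a subunit number or by a, p0, p1 or p2, with the suffixes a, x, l, l1 or al allowed. This gave 84 genes of the 45952 listed, and the same 84 in both tables of expression values. Of these, 42 were core proteins of the large subunit, 30 were core proteins of the small subunit, 3 were proteins of the P stalk, and 9 were paralogs or copies named after another member. GENCODE M21 annotates 82 of them as protein-coding genes and the copies Rps4l and Rps12l1 as pseudogenes. The pattern missed subunit genes with other names, of which Fau, Rps3a1 and Gnb2l1 are described apart.

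A ribosome holds 1 copy of most of these proteins, so a cell needs them in nearly equal numbers. Their mRNAs are short, abundant and stable, and many start with a run of pyrimidines, the terminal oligopyrimidine (TOP) tract, through which the mTOR pathway and the protein Larp1 control their translation. In sensory neurons ribosomes are found in the cell body and also in axons, where local protein synthesis follows injury. Mouse ribosomal protein genes have many processed copies scattered in the genome, so short reads from one gene can match another place equally well.

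RNA-seq was done on purified sensory neurons of mice, with 2 animals pooled per library. The labels name dorsal root ganglia (DRG), and by the study's methods a few naïve replicates came from trigeminal ganglia instead, which the labels do not identify. The naïve libraries (11 male and 11 female) came from uninjured adult AdvGFP mice, STOCK Tg(Avil-EGFP)QD84Gsat/Mmucd, in which the advillin promoter drives EGFP, and green cells were sorted by FACS. The other libraries (3 male and 3 female) came from C57BL/6J mice on day 8 after partial sciatic nerve ligation (SNL in the tables, PSNL in the sample labels), and neurons were purified by MACS. Estrus was followed in the injury experiment only, where the females were in estrus. The labels name satellite glia as the contaminant of naïve libraries and erythrocytes as that of SNL libraries. The experiments differ in strain, purification and injury together, and their tables were normalized separately, so no test was made between them and differences cannot be assigned to any of these. In bulk libraries fewer cells of a type and less RNA per cell cannot be told apart. The p-values below measure the spread between these pooled libraries.

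Neuronal markers were present in every library, with Uchl1 at 1228.6 FPKM or more in naïve libraries and 1664 or more after SNL. FPKM is the number of fragments scaled to transcript length and to the mapped fragments of the library, so levels of different genes are compared per length. Summed FPKM of satellite glial markers was 1665 to 7152 in naïve libraries and 108 to 153 after SNL. Summed erythroid markers were 0.369 to 71.6 FPKM in naïve and 561 to 18891 in SNL libraries. Input reads ranged from 24800048 to 50649730, and 78.4% to 89.8% mapped to a single place. Trunk Hox genes, which mark ganglia of the trunk, summed to less than 10% of the median library in naïve male replicates 2 and 10 and female replicates 2 and 11. The sex difference and the RIN slope of naïve members are also given without them, while other results are not. The RNA integrity number (RIN, where 10 is intact RNA) ran from 5.2 to 9.9 in naïve libraries and from 5.8 to 9.1 after SNL, and naïve male replicate 8 had none.

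Ribosomal protein mRNAs were among the most abundant in these neurons. In naïve libraries the 80 genes above 1 FPKM had a median of 233.9 FPKM (quartiles 156.5 and 429), and 53 of the 80 lay within 2-fold of that median. Of all listed genes, the 500 highest by mean FPKM held 41 of the 84. After SNL the median was 190.03 FPKM, 50 genes lay within 2-fold of it, and 36 were among the 500 highest. The order of the genes was similar in both experiments (Spearman's rho = 0.85 across 80 genes, which are not independent replicates).

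**Figure D1:**
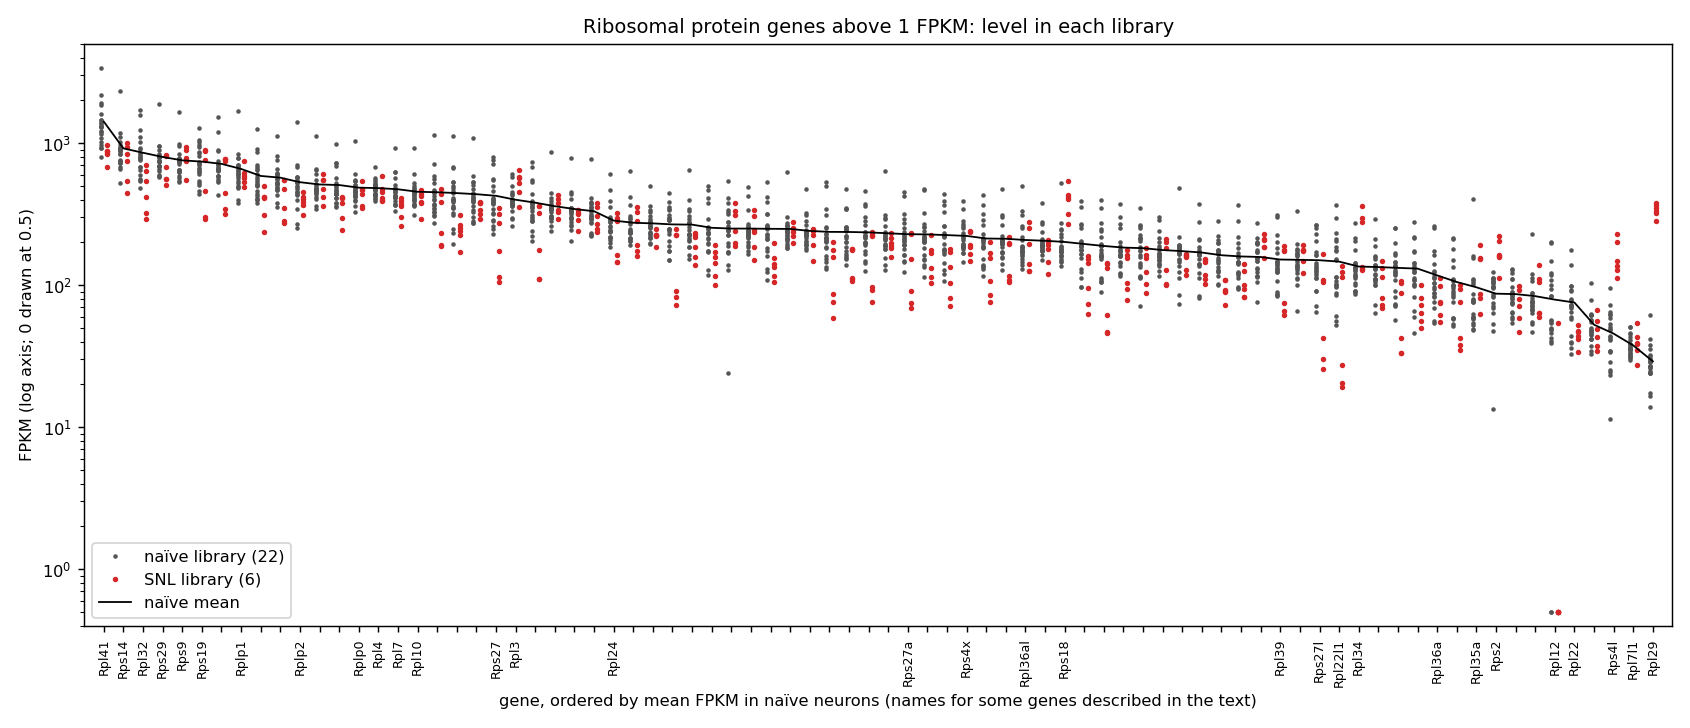
Level of each ribosomal protein gene above 1 FPKM (x axis, ordered by mean level in naïve neurons, with names for some of those described in the text) as FPKM on a log axis, with 1 grey point per naïve library (22), 1 red point per SNL library (6) and the naïve mean as a line. Rpl41 stands highest in both, Rpl29 at the right end has its 6 SNL points at 284 to 377 FPKM and its naïve points at 13.96 to 61.7, and Rpl12 is listed at 0 in 5 SNL libraries.

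Rpl41 had the highest level in both experiments. It encodes a peptide of 25 residues, the shortest protein of the ribosome, and lies on chromosome 10 (128548114 to 128549305, GRCm38). Its FPKM had a lowest value of 802.01, a median of 1309 and a highest value of 3389.9 over the 22 naïve libraries. After SNL male replicates 1 to 3 had 855, 678 and 879 FPKM, and female replicates 1 to 3 had 834, 973 and 883. The sexes overlapped in both experiments. The coding sequence of Rpl41, without its stop codon, is shown because it is the shortest of all members and belongs to the most abundant one. It is taken from GENCODE M21 and is written 5′ to 3′ in lower case.
Rpl41: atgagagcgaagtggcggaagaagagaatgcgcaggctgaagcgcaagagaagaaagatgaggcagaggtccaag

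Below Rpl41, the highest naïve means were those of Rps14 (920 ± 352 FPKM, SD, n = 22), Rpl32 (857 ± 319), Rps29 (800.4 ± 269), Rps9 (758 ± 234) and Rps19 (742 ± 213.1). All encode core proteins, and Rps19 is the gene most often mutated in Diamond-Blackfan anaemia. The 6 highest genes together made 22.3% of the summed level. After SNL the leaders were Rpl41 (850.3 ± 96.7 FPKM, SD, n = 6), Rps9 (781 ± 136), Rps14 (754 ± 218.96), Rps29 (657 ± 137), Rps19 (601 ± 282) and Rplp1 (593 ± 88.7). Thus 5 of the 6 leading genes were shared, and their sum was 21.3% of that of all members. The stalk proteins, which recruit translation factors, had naïve means of 487 ± 138 FPKM for Rplp0, 659 ± 261 for Rplp1 and 532 ± 226.02 for Rplp2 (SD, n = 22). After SNL Rplp0 was at 440.5 ± 73.1, Rplp1 at 593 ± 88.7 and Rplp2 at 390.03 ± 48.9 FPKM (SD, n = 6).

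At the low end, 4 members had a mean under 1 FPKM in both experiments. Rpl10l, a testis-expressed copy of Rpl10, was listed at 0 in all 28 libraries. Rpl39l, also known from testis, was listed at 0 in 21 of 22 naïve and 4 of 6 SNL libraries, with 2.33 FPKM in SNL male replicate 3 as its highest value. Rpl3l, the copy used in heart and skeletal muscle, was listed at 0 in 14 naïve and 4 SNL libraries and never exceeded 0.506 FPKM. The pseudogene Rps12l1 was listed at 0 in 12 naïve and 5 SNL libraries. An exact 0 can also be a failed estimate in these tables, which was not tested. Rpl12 encodes a protein at the base of the stalk and was listed at 0 in naïve male replicates 5 and 6 and in 5 SNL libraries, with 54.3 FPKM in SNL female replicate 2. Its mean count over the SNL libraries, as deposited by the authors, was 1840.

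The lowest levels above 1 FPKM in naïve neurons were those of Rpl29 (29.1 ± 9.78 FPKM, SD, n = 22) and Rpl7l1 (37.7 ± 6.11). Rpl29, a small basic protein of the large subunit, was the member with the largest change of rank between the experiments. It was at 13.96 to 61.7 FPKM in naïve libraries, rank 80 of the members. After SNL, at rank 22, male replicates had 334, 284 and 377 FPKM and female replicates 351, 366 and 321. The ranges did not overlap. The mean counts deposited by the authors were 209.1 in naïve and 5427 in SNL libraries. Of the 75-base windows of its transcript, 69.7% occur exactly in transcripts of 45 genes elsewhere. The part of such copies in this difference was not tested.

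The ranges of naïve and SNL libraries did not overlap for 2 of the 80 genes (2.5%), both higher after SNL, and for 0 genes lower after SNL, beside 1.19% and 1.82% of the 12284 genes above 1 FPKM in either table. The other gene was Rps4l. This pseudogene on chromosome 6 (148354656 to 148355598), a copy of X-linked Rps4x, was at 11.5 to 95.4 FPKM in naïve libraries. After SNL male replicates had 229.4, 147 and 112 FPKM and female replicates 203, 128 and 136. Rps18 rose in rank from 50 to 15 (202 ± 80.8 and 397 ± 95.8 FPKM), Rps2 from 72 to 43 (87.2 ± 26.3 and 171 ± 38.5) and Rpl34 from 65 to 35 (135 ± 45.8 and 221.4 ± 103). In contrast to these, 66 of the 80 genes had a lower mean in the SNL table, with a median ratio of 0.79, beside 1.04 for those 12284 genes.

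Near-identical sequence limits what these levels mean. Over the 84 members a median of 47.9% of the 75-base windows of the transcript occurred exactly in transcripts of other genes, and 36 members shared at least 50% of them. Rps27 shared 98.5%, Rpl10 91.9% and Rps12 89.5%, so for these genes most windows had no unique place among transcripts. Rps3, Rpl3l and Rpl39l were among those that shared none. Of the 254 genes named as a processed copy of a member, 49 had a mean of at least 1 FPKM in naïve libraries, led by Rpl39-ps (303 FPKM), Rpl14-ps1 (285) and Rps23-ps1 (256). Annotated genes overlapped 49 of the members, and reads were not stranded. Rpl24 was at 285 ± 97.4 FPKM (SD, n = 22), while its mean count in the authors' table was 2.14, and Gm28037 overlaps it. Outside the pattern, the naïve means were 673 ± 235 FPKM for Fau, 256 ± 71.7 for Rps3a1 and 169 ± 42.5 for Gnb2l1, which encodes the scaffold Rack1 (SD, n = 22).

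Paralog pairs were compared by the share of the second gene in the summed FPKM of the pair. Rpl22 and Rpl22l1 encode interchangeable large-subunit proteins, and in mouse cells lacking Rpl22 the paralog is known to replace it. Rpl22l1 made up 65.5% ± 7.01 of the pair in naïve male libraries and 63.8% ± 6.56 in naïve female libraries (SD, n = 11 each). After SNL the share was 30.5%, 44.7% and 72.4% in the 3 male libraries and 31.5%, 70.9% and 73.96% in the 3 female libraries. In FPKM the SNL male replicates had 20.5, 27.3 and 137, and the SNL female replicates 19.1, 115 and 125. Male replicate 3 and female replicates 2 and 3 were thus high and the other 3 libraries low, and the sexes overlapped.

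Rps27l, a p53 target in other tissues, made up 24.5% ± 4.02 of its pair with Rps27 in naïve male and 27.7% ± 5.73 in naïve female libraries. After SNL male replicates had 25.8, 42.7 and 167 FPKM and female replicates 30.04, 109.5 and 105, high in the same 3 libraries. The coding sequences of Rps27 and Rps27l are 252 bases each and are identical at 76.2% of positions, with no identical run longer than 11 bases. Rpl36a and Rpl36al, 318 bases each, are identical at 87.7%, with a longest run of 24. Reads of 75 bases can therefore separate the members of each pair, although both may match processed copies elsewhere. By the study's methods only reads with a single place in the genome were kept, so reads matching such a copy equally well were dropped. Most windows of Rps27 occur in other transcripts. How far dropped reads move the shares was not tested. The first 60 coding bases of these pairs are shown, from GENCODE M21 and 5′ to 3′, because such differences tell the genes of a pair apart. Capitals mark the bases that differ from the partner.
Rps27: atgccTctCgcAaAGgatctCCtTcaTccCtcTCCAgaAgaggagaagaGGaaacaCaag
Rps27l: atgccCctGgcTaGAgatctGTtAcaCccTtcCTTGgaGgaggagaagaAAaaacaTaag
Rpl36a: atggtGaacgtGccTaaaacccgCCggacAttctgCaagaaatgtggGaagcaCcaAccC
Rpl36al: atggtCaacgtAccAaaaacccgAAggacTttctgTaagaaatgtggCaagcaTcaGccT

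Autosomal Rpl36al had the larger part of its pair with X-linked Rpl36a in all 28 libraries, 61.1% ± 5.89 in naïve male and 67.3% ± 7.49 in naïve female libraries (SD, n = 11 each). After SNL it was 69.5% ± 4.35 in male and 69.3% ± 2.27 in female libraries (n = 3 each). Rpl7l1, an assembly factor related to Rpl7, stayed between 3.4% and 10.9% of its pair in naïve and between 8.67% and 12.9% in SNL libraries. Rps4l held 17.5% ± 5.52 and 16.9% ± 7.09 of its pair with Rps4x in naïve male and female libraries. After SNL these values were 45.6% ± 12.5 and 43.8% ± 10.1. The remaining second genes, Rpl3l, Rpl10l and Rpl39l, never exceeded 1.21% of their pairs.

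**Figure D2:**
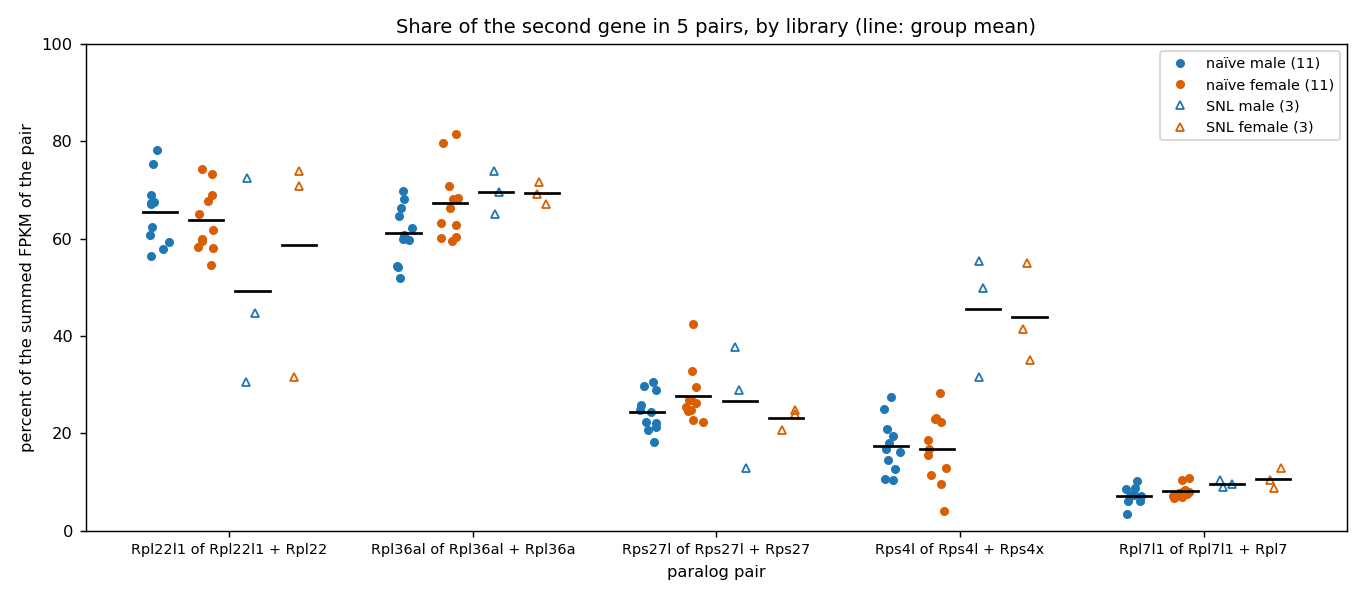
Share of the second gene in the summed FPKM of 5 paralog pairs (percent, y axis) in each library, with naïve libraries as filled circles and SNL libraries as open triangles, blue for male and orange for female, and the group mean as a line. The naïve sexes overlap in every pair, Rpl22l1 splits the 6 SNL libraries into 3 at 70.9% or more and 3 at 44.7% or less, and Rps4l is at 31.5% or more in all SNL libraries and at 28.3% or less in all naïve ones.

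The members varied together between libraries. In naïve neurons a member had a median correlation of 0.891 with the mean of the other members over 22 libraries (log2(FPKM + 1), across tested members from 0.179 to 0.97), and 57 of 80 exceeded 0.8. These correlations share the scaling of each library. The lowest were Rpl7l1 (0.179), Rps2 (0.195) and Rps4l (0.205). After SNL the median was 0.914 over 6 libraries, and Rps4l (-0.658), Rpl28 (-0.438) and Rpl4 (-0.186) ran against the others. Naïve male replicate 11 was the highest library for 66 of the 83 members above 0 anywhere, and male replicate 3 for 12. The lowest libraries were female replicate 10 for 23 members and male replicate 6 for 19.

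Summed over the 84 members, the level per library ran from 17508 to 52540 FPKM in naïve neurons, 3.00-fold between the extremes. Male libraries had a lowest value of 18023 (replicate 6), a median of 23396 and a highest value of 52540 (replicate 11), and female libraries 17508 (replicate 11), 23130 and 24811 (replicate 8). The medians differed little while the male spread was larger, with an SD of 10196 against 2438 FPKM, and male replicates 11, 3, 2, 4 and 1 were above every female library. Without male replicate 11 the male SD was 6148 FPKM. That library also had the highest sum of neuronal markers, 32420 FPKM beside 13248 to 23476 in the others, and the log2 member sum had an r of 0.62 with neuronal markers over 22 libraries and of 0.28 without it. Most of this marker sum was Sncg, at 8731 to 26552 FPKM over naïve libraries, while no other listed neuronal marker exceeded 3613 FPKM. The r with the marker sum therefore mainly describes Sncg. As a share of all FPKM in the library, the members made 3.27% to 6.03% in male and 3.11% to 4.04% in female libraries. After SNL male replicates summed to 18820, 14085 and 23344 FPKM and female replicates to 16328, 24958 and 21794. The sexes overlapped there too.

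The coefficient of variation (CV) between naïve libraries had a median of 36.01% over 80 tested members, beside 41.8% over all 12893 tested genes and 27.3% over the 1979 tested genes with a mean of at least 50 FPKM. Without male replicate 11 these medians were 25.3%, 39.7% and 22.1%. The steadiest members were Rpl4 (13.5%), Rpl7l1 (16.2%) and Rpl3 (20.6%), and the most variable were Rpl35a (78.1%), Rpl12 (68.2%) and Rpl22l1 (54.4%). Rpl4 and Rpl3, whose products are among the largest of the ribosome, were at 393 to 685 and 259 to 611 FPKM. Rpl35a was at 405 FPKM in male replicate 11 and had a naïve median of 76.9. After SNL the median CV was 25.8%, with Rpl7a (9.36%), Rpl29 (10.03%) and Rps15 (11.1%) as the steadiest. The most variable were Rpl22l1 (77.1%) and Rps27l (70.5%), apart from Rpl12, which is listed at 0 in 5 libraries.

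**Figure D3:**
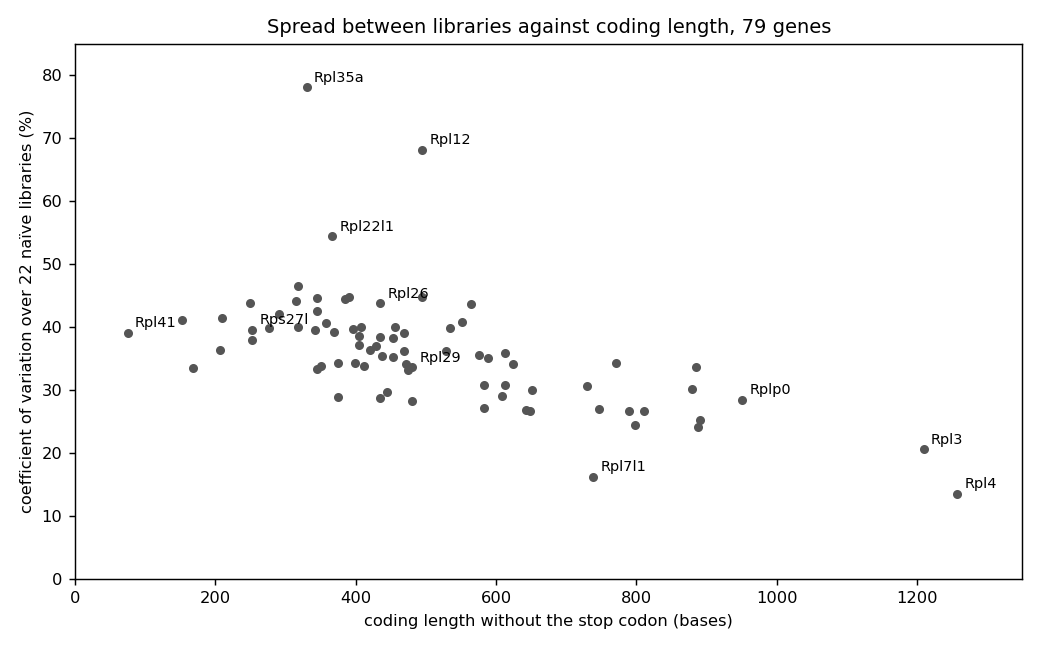
Coefficient of variation over the 22 naïve libraries (percent, y axis) against the coding length of each of 79 coding members above 1 FPKM (bases, x axis), 1 point per gene. The longest coding sequences, those of Rpl4 and Rpl3, lie at 13.5% and 20.6%, while Rpl35a, Rpl12 and Rpl22l1 lie at 54.4% or more.

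Shorter members were the more variable ones. Across 79 genes the CV had a Spearman's rho of -0.67 with coding length, and the level itself one of 0.07, as a description in which the points share libraries and scaling. The share of windows found elsewhere had a rho of -0.02 with the CV.

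Promoters were examined because the members move together. RefSeq promoter sequences (GRCm38.p6, 250 bases before to 50 after the start) were matched by symbol for 62 of the 84 members and for 27025 genes in all. A run of at least 6 pyrimidines from 40 bases before to 15 after the annotated start was held by 48 of the 62 (77.4%), beside 52.6% of all genes. CCGGAA, the letters bound by ETS factors such as GABP, was found on either strand of the 300 bases in 54.8% of members and 16.7% of all genes. AAGATGG, the core of YY1 sites, was found in 16.1% and 7.28%, and TATAAA near the start in 3.23% and 4.16%. A match is a description of letters and not a site. The sequence around the start is shown 5′ to 3′ for Rpl41 and Rps9, which are among the most abundant members, for the steadiest (Rpl4) and for 3 members of the pairs above, with pyrimidine runs of 6 or more in capitals.
Rpl41: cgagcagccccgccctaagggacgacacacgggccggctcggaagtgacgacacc
Rps9: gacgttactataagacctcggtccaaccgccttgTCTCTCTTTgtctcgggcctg
Rpl4: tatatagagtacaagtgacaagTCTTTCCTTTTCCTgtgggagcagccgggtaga
Rps27: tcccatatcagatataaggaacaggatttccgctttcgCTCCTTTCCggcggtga
Rps27l: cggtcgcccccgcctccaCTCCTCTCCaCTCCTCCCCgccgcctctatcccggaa
Rpl22l1: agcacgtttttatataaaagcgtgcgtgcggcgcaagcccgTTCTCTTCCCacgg

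These windows are chr10:128549154-128549208 (minus strand) for Rpl41, chr7:3704001-3704055 (plus) for Rps9, chr9:64173347-64173401 (plus) for Rpl4, chr3:90213634-90213688 (minus) for Rps27, chr9:66946046-66946100 (plus) for Rps27l and chr3:28805468-28805522 (plus) for Rpl22l1. The runs were 14 bases long in Rpl4, 10 in Rpl22l1 and 9 in Rps9, Rps27 and Rps27l, and Rpl41 held none in this window. A start annotated a few bases from the used one would move such a run, so its place in the mRNA is not given by these windows. For Rpl41 the gene coordinates given earlier extend past the upstream end of this window. The lack of a run there thus describes only the start used for the window.

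Male and female libraries were compared to see whether ribosomal protein genes differ between the sexes. A gene was tested when its FPKM reached 1 in at least 3 naïve or 2 SNL libraries of one sex. No member passed the threshold, an adjusted p under 0.05, in either experiment. In naïve neurons 78 of 80 tested members had a higher mean log2(FPKM + 1) in male libraries, by a median of 0.31, while the median of all 12893 tested genes was -0.07 and 39% of them were higher and 61% lower in male libraries. By limma, 0 of 80 members had an adjusted p under 0.05, where 0.0388% of all tested genes were higher and 0.0155% lower in male libraries. At an unadjusted p under 0.05, 23 members (28.7%) were higher and 0 lower, beside 2.39% and 5.9% of all tested genes. Since the members vary together, 80 genes are not 80 independent observations.

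The smallest p was that of X-linked Rpl36a (chromosome X, 134585654 to 134588062). Its FPKM had a lowest value of 69.4, a median of 124.9 and a highest value of 262 in naïve male libraries, and 54, 88.2 and 126 in female libraries. The ranges overlapped, and 5 male libraries were above the highest female one. The difference was 0.59 ± 0.21 (male minus female, log2(FPKM + 1), SE, 11 libraries per sex, limma adjusted p = 0.595). Rpl23, whose product binds Mdm2, differed by 0.49 ± 0.17 and Rps26 by 0.39 ± 0.14 (limma adjusted p = 0.595 for each). The other X-linked members were likewise below the threshold, with differences of 0.33 ± 0.13 for Rps4x, 0.39 ± 0.2 for Rpl39 and 0.21 ± 0.13 for Rpl10. Lower in male libraries were Rpl12 (-0.42 ± 0.77) and Rps19 (-0.07 ± 0.17), and Rpl12 was higher in male libraries (by 0.13) when replicate 5 or 6, listed at 0, was left out. The stalk genes were at 0.16 ± 0.14 for Rplp0, 0.27 ± 0.17 for Rplp1 and 0.4 ± 0.19 for Rplp2.

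RNA quality also differed between the naïve sexes, and its part in these differences was not tested. RIN had a mean of 7.75 ± 1.48 in the 10 naïve male libraries with a value and 8.85 ± 0.668 in the 11 female ones. With RIN in the model, which left out male replicate 8, the median difference was 0.17. At an unadjusted p under 0.05 by limma, 4 members were then higher and 0 lower in male libraries, beside 1.81% and 4.28% of all tested genes. The median was 0.12 with array quality weights, which let discordant libraries count less, 0.19 without male replicate 11 and 0.28 without the 4 libraries low in trunk Hox genes. Other settings raised it, to 0.37 with median-of-ratios scaling and 0.36 without male replicate 6. It was 0.34 with satellite glial markers and 0.32 with the uniquely mapped percentage as a covariate. Without those 4 libraries 10 members were higher and 0 lower in male libraries at an unadjusted p under 0.05 by limma. The share of all tested genes was not counted for that fit.

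After SNL the direction was the opposite, again with no member past the threshold. Of 79 tested members 77 were lower in male libraries, with a median of -0.2 beside -0.08 for all 11303 tested genes, of which 59.4% were lower and 40.6% higher. By limma 0 of 79 had an adjusted p under 0.05 and 0 an unadjusted p under 0.05, where the adjusted threshold was passed by 0.0265% of tested genes upwards and 0.0177% downwards, and the unadjusted one by 1.11% and 2.57%. Rps2 had the smallest p. Male replicates had 113, 165 and 159 FPKM and female replicates 162, 223.2 and 204, a difference of -0.43 ± 0.22 (log2(FPKM + 1), SE, 3 libraries per sex, limma adjusted p = 0.945). Rps10 (-0.27 ± 0.19) and Rpl10a (-0.26 ± 0.2) followed. Only Rpl4 (0.14 ± 0.21) and Rps4l (0.03 ± 0.3) were higher in male libraries, and both turned lower without male replicate 1. Without male replicate 2 the median was 0.00 and without female replicate 2 it was -0.05, so the difference from 0 rested on those libraries. With RIN in the model it was -0.38, and at an unadjusted p under 0.05, 28 members were lower and 0 higher in male libraries, beside 5.8% and 2.45% of all tested genes. The difference between the experiments was not tested.

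**Figure D4:**
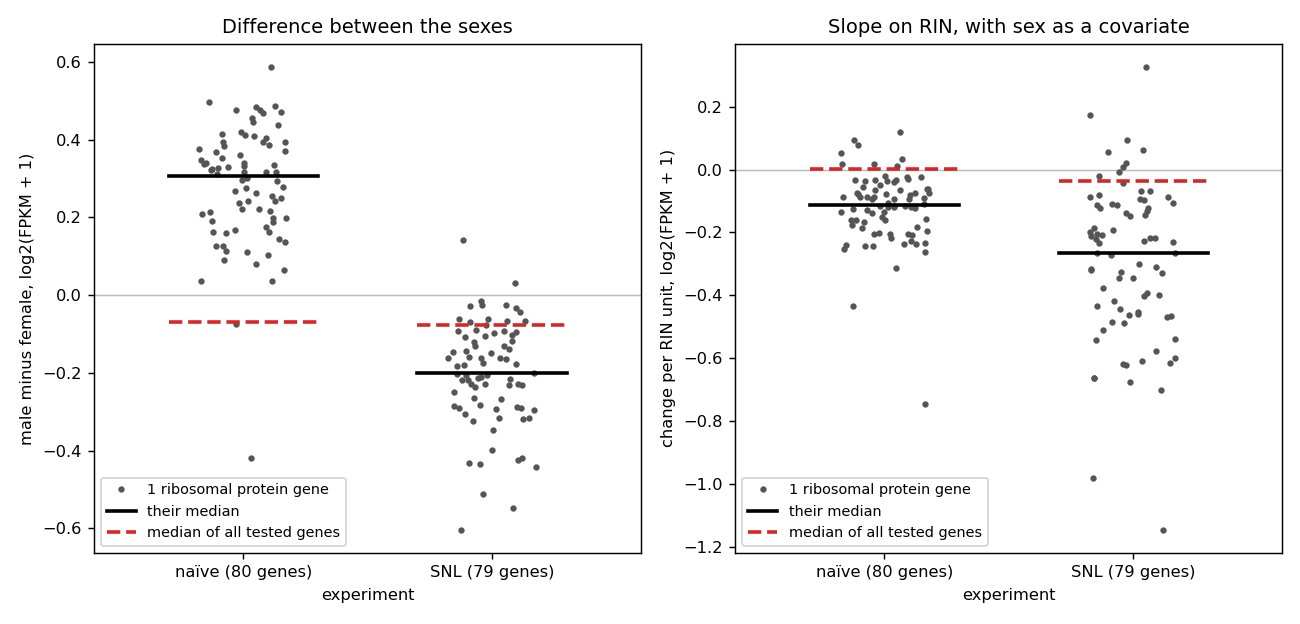
Estimates for each tested ribosomal protein gene (1 point per gene, 80 in naïve and 79 in SNL neurons), as the difference between the sexes (left, male minus female) and the slope on RIN (right, per RIN unit), both on log2(FPKM + 1). The black line is the median of the members and the dashed red line that of all tested genes; member medians lie at 0.31 and -0.2 for sex and at -0.11 and -0.26 for RIN.

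The level of the members was then related to RIN. In naïve neurons the summed FPKM, on a log2 scale, had a Pearson's r of -0.42 and a Spearman's rho of -0.48 with RIN over 21 libraries, given as a description. Within the sexes r was -0.29 (10 male libraries) and -0.41 (11 female libraries), and without the 2 libraries of most distant RIN, male replicates 3 and 7, it was -0.42. Male replicate 11, with the highest sum at a RIN of 8.6, stood apart, and without it r was -0.63. Over the 6 SNL libraries r was -0.64 and rho -0.77.

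**Figure D5:**
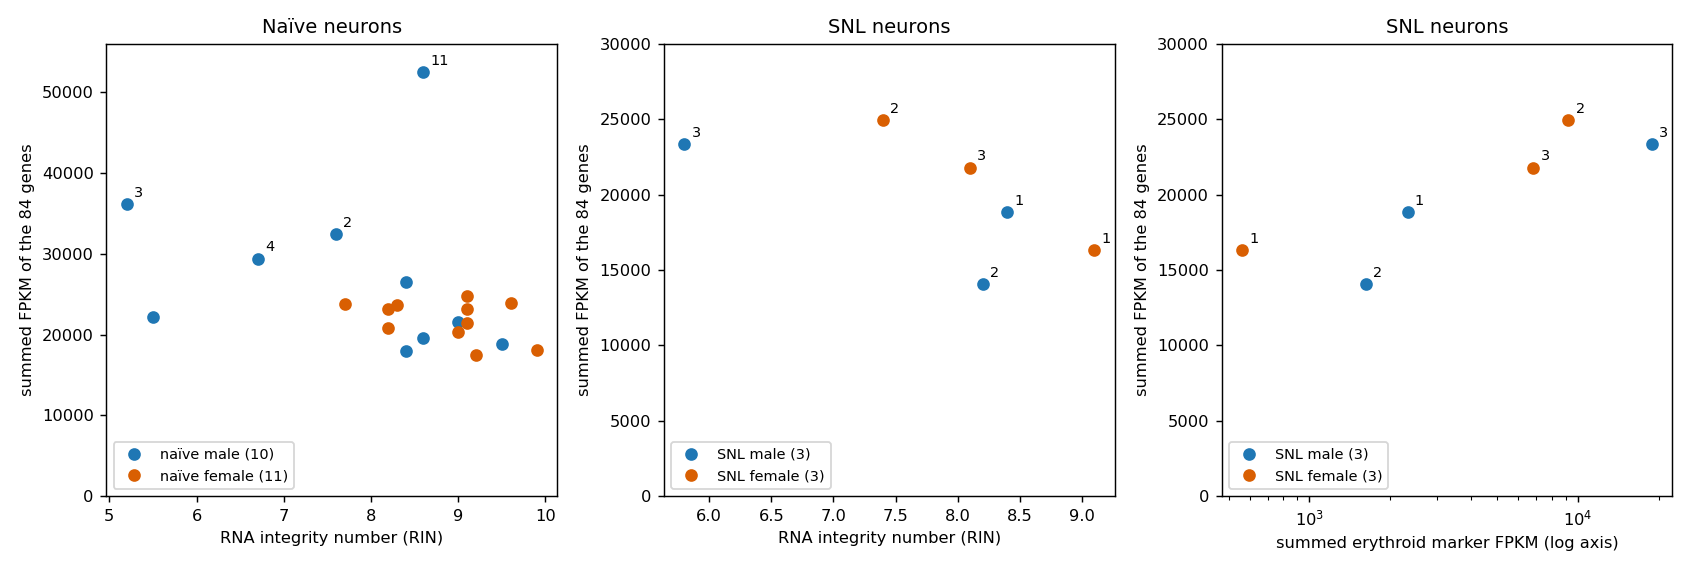
Summed FPKM of the 84 genes per library (y axis) against RIN in naïve neurons (left, 21 libraries with a RIN), against RIN after SNL (middle) and against summed erythroid marker FPKM after SNL (right, log axis), blue for male and orange for female, with replicate numbers beside the points discussed. Male replicate 11 is at 52540 FPKM with a RIN of 8.6, and the 3 SNL libraries with the most erythroid RNA have the 3 highest sums.

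Gene by gene, with sex as a covariate, 72 of 80 naïve members fell with rising RIN, and 8 rose, beside 49.3% and 50.7% of all tested genes. The median slope was -0.11 per RIN unit, and that of all tested genes 0.00. No member passed an adjusted p under 0.05 by limma, where 0.0465% of tested genes rose and 0.0233% fell with RIN. At an unadjusted p under 0.05, 21 members (26.2%) fell and 0 rose, beside 6.9% and 6.24% of all tested genes. This count rested on few libraries. Without male replicate 3, which had the lowest RIN, 2 members fell and 0 rose, beside 6.29% and 5.34% of all tested genes. Without male replicate 5 the counts were 10 and 0, beside 6.07% and 5.89%. Other removals raised the count, to 35 falling and 0 rising without male replicate 7 (RIN 5.5) and to 51 and 0 without male replicate 11. Without the 4 libraries low in trunk Hox genes the median slope was -0.09, and 11 members fell and 0 rose under that p. Shares of all tested genes under that p were not counted for the fits without replicate 7, replicate 11 or those 4 libraries, so these counts have no background. All tested genes also moved without replicate 11. An adjusted p under 0.05 by limma was then reached by 191 rising and 187 falling genes, beside 6 and 3 with that library. The steepest of those with the smallest p was Rpl22l1, at 366 FPKM in male replicate 3 (RIN 5.2) and 99.2 in female replicate 10 (RIN 9.9), with a slope of -0.43 ± 0.11 (log2(FPKM + 1) per RIN unit, SE, 21 libraries, limma adjusted p = 0.0953). Rps25 (-0.24 ± 0.07) and Rps27 (-0.24 ± 0.08) followed, with adjusted p of 0.163 and 0.205 by limma. Rpl12, with its 2 libraries at 0, had a slope of -0.74 ± 0.35 (limma adjusted p = 0.372). Rpsa (0.09 ± 0.08), which encodes a small-subunit protein also known as laminin receptor, Rpl8 (0.08 ± 0.07) and Rps4l (0.12 ± 0.12) had positive slopes that did not pass.

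Here 1 library decided the call. Without naïve male replicate 11, 6 members fell past the threshold by limma, namely Rpl22l1 (-0.47 ± 0.1, adjusted p = 0.02, n = 20), Rps21, Rps25, Rps27, Rps27a and Rps20, with adjusted p of 0.0259 to 0.047. In that fit 1.45% of all tested genes fell and 1.48% rose, against 7.5% and 0% of members. Without sex as a covariate Rpl22l1 alone among the members passed, where 0.248% of tested genes fell and 0.341% rose. When replicate 11 was kept, the median slope was -0.11 in male and -0.13 in female libraries fitted alone.

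After SNL 72 of 79 members fell with rising RIN, and 7 rose, beside 56% and 44% of all tested genes, with a median slope of -0.26 against -0.03. By limma 0 of 79 passed the adjusted threshold, and 0% of all tested genes did in either direction. At an unadjusted p under 0.05, 42 members (53.2%) fell and 1 rose (Rps4l, 0.33 ± 0.1), beside 11.3% and 6.25% of all tested genes. The smallest p were those of Rps27l (-0.98 ± 0.13 per RIN unit, SE, 6 libraries), Rps27a (-0.7 ± 0.11) and Rpl22l1 (-1.14 ± 0.19), each with a limma adjusted p of 0.0887. Rps27a, whose product is ubiquitin fused to a small-subunit protein, was at 90.5, 74.7 and 235 FPKM in male libraries with RINs of 8.4, 8.2 and 5.8. In female libraries with RINs of 9.1, 7.4 and 8.1 it was at 69.1, 229.6 and 153. Rpl28 (0.17 ± 0.1) and Rplp0 (0.09 ± 0.1) had positive slopes that did not pass, and that of Rplp0 turned negative without male replicate 1. Without SNL female replicate 3, Rps27l and Rpl22l1 passed (limma adjusted p = 0.0424 for each, n = 5), where 0.168% of tested genes fell and 0.0442% rose. The slopes of the 79 members fitted in both experiments, which share no library, had a Pearson's r of 0.75 across genes, and 70 fell in both. The members vary together and are not independent observations. Neither figure was computed over all tested genes, so there is no background for them.

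Erythroid RNA after SNL was highest at the lowest RIN (male replicate 3, RIN 5.8) and lowest at the highest (female replicate 1, RIN 9.1). Summed erythroid markers, 4 globin genes and Alas2, reached 2322, 1618 and 18891 FPKM in male replicates 1 to 3, and 561, 9223 and 6833 in female replicates 1 to 3. All 5 erythroid markers were above 0 in every SNL library. The 3 libraries with the most erythroid RNA were male replicate 3 and female replicates 2 and 3, the same libraries in which Rpl22l1, Rps27l and the summed member level were highest. The log2 sum of members had an r of 0.85 and a rho of 0.89 with that of erythroid markers over 6 libraries, as a description. With erythroid markers in place of RIN, 29 of 79 members rose with them by limma (adjusted p under 0.05) and 0 fell (36.7% and 0%), beside 1.75% and 0.159% of all tested genes. Rps25 rose by 0.43, Rps27l by 0.55 and Rpl22l1 by 0.69 on the log2(FPKM + 1) scale per doubling of erythroid markers, with adjusted p of 0.00474, 0.0241 and 0.00626 by limma. The log2 member sum also had an r of 0.83 with summed fibroblast markers, -0.73 with Schwann markers, -0.78 with the percentage of uniquely mapped reads and -0.63 with input reads over these 6 libraries. RIN, erythroid RNA and these measures cannot be told apart here. In naïve libraries, with erythroid sums of at most 71.6 FPKM, the member sum had an r of 0.27 and a rho of 0.41 with erythroid markers.

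Genes whose level followed the members most closely in naïve neurons were searched among 7302 other genes with a mean of at least 5 FPKM. The 10 highest Pearson's r with the mean log2 level of the members over 22 libraries were those of Gtf2h5 (0.959), Naca (0.948), Grcc10 (0.94), Uqcrq (0.939), Tmem258 (0.936), Psmb1 (0.934), Hint1 (0.932), Mrpl54 (0.928), Mrpl52 (0.927) and Pfdn5 (0.926). The median over all 7302 genes was -0.07 and the 95th percentile 0.728. Over the 6 SNL libraries Uqcrq (0.982), Hint1 (0.968) and Naca (0.955) again ran with the members, while Grcc10 did so at 0.189. Naca encodes a subunit of the nascent polypeptide-associated complex at the ribosome exit, and Mrpl54 and Mrpl52 belong to the mitochondrial ribosome.

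Other genes of translation were counted from lists. None of their members passed the threshold in any of the 4 comparisons by limma. In naïve neurons the median male minus female difference was 0.12 for 18 elongation factor and other TOP mRNA genes, -0.00 for 18 initiation factors, 0.05 for 31 ribosome biogenesis genes, -0.06 for 12 mTOR and TOP regulators, and 0.13 for 77 mitochondrial ribosomal proteins, against 0.31 for the cytosolic ones. The unadjusted threshold was passed upwards by 2, 1, 0, 0 and 4 genes of these lists and downwards by 0, 3, 2, 0 and 0, beside 2.39% and 5.9% of all tested genes. After SNL 18, 18, 31, 10 and 76 genes of these lists were tested. Their medians between the sexes were -0.02, 0.09, 0.02, 0.01 and -0.14 in the same order. Under the unadjusted threshold 0, 0, 1, 0 and 1 genes went upwards and 0, 0, 0, 1 and 4 downwards, beside 1.11% and 2.57% of all tested genes. On RIN the median naïve slopes were 0.01, 0.02, 0.02 and 0.02 for the first 4 lists and -0.08 for mitochondrial ribosomal proteins, of which 67 of 77 fell, 11 of them with an unadjusted p under 0.05 against 2, 2, 1 and 1 in the other lists. Rising slopes under that p numbered 0, 2, 4, 1 and 1. Of all tested genes 6.9% fell and 6.24% rose under it. After SNL the slopes were -0.11 for elongation and TOP genes, -0.1 for initiation, 0.02 for biogenesis, 0.01 for mTOR regulators and -0.11 for mitochondrial ribosomal proteins, with 6, 4, 5, 1 and 16 falling and 1, 0, 4, 0 and 2 rising under an unadjusted p of 0.05. There 11.3% of all tested genes fell and 6.25% rose.

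Of single genes in these lists, Eef1a1, the main elongation factor and itself a TOP mRNA, differed between the naïve sexes by 0.03 ± 0.1 and had a slope of 0.05 ± 0.05 per RIN unit (log2(FPKM + 1), SE). Eef2, which moves the ribosome along the mRNA, differed by -0.28 ± 0.18, opposite in sign to most cytosolic ribosomal protein genes, and Tpt1, another TOP mRNA, by 0.23 ± 0.15 with a RIN slope of -0.18 ± 0.06. Rheb, the activator of mTOR, had a naïve RIN slope of -0.19 ± 0.06. Mitochondrial Mrpl41, Mrps21 and Mrpl20 had RIN slopes of -0.16 ± 0.08, -0.09 ± 0.08 and -0.14 ± 0.08 in naïve neurons. All had limma adjusted p of 0.149 or more in these comparisons.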

How the data were processed

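Reads of 75 bases were, per the labels and the study's methods, aligned by the authors to mm10 with STAR, merged with SAMtools and turned into the deposited FPKM with Cufflinks. By those methods STAR kept only reads with a single place in the genome. The authors also deposited mean normalized counts and DESeq2 fold changes and p-values of their own sex comparison (the fold changes and p-values were not used here), a RIN score per library and alignment statistics. No source used here gives the versions of these tools. FPKM was taken as deposited. No per-library counts were analysed, so depth behind single values is unknown.

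The filter on low values (FPKM 1 or more, reached by 3 naïve or 2 SNL libraries of a sex) left 12893 and 11303 genes, with 80 and 79 members. The test was limma 3.58.1 (R 4.3.3) on log2(FPKM + 1), which understates changes of low genes, with an intensity trend, no covariate in the sex comparison and sex as covariate for RIN, Benjamini-Hochberg adjustment over all tested genes and a threshold of 0.05, and was tested on simulated data. Sums, shares, CVs and correlations are descriptions. Windows of transcripts came from GENCODE M21, coordinates from the files.

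The members and lists were chosen with earlier results of these data known. Named members are the 6 highest and lowest in level, the 3 smallest p per direction where none passes, the 3 highest and lowest CVs, those mostly at 0, paralog pairs, X-linked and stalk genes. The 10 genes most like the members were also named. Of the leading 3 by level per list only some were named, with naïve values. No initiation or ribosome biogenesis gene was named, and values of single list genes after SNL were not given. Rps18, Rps2, Rpl34, Rps26, Rpl24, Rpl28 and others outside this rule were chosen after their values were seen. Some members or related genes are not reported here by name.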

Additional observations from a re-analysis of the deposited data

Results flagged for a closer look

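Rpl12 was listed at 0 FPKM in 5 of 6 SNL libraries, while the authors' mean normalized count over these libraries, a value that no comparison used, was 1840. Rpl39l was listed at 0 FPKM in 4 SNL libraries with an authors' mean normalized count of 6.76. These means cover all 6 libraries, including those above 0 (54.3 FPKM of Rpl12 in female replicate 2, and 2.33 FPKM of Rpl39l in male replicate 3), so they give no count for any single library. For Rpl12 a mean of 9.04 FPKM after SNL stood beside that mean count of 1840. In naïve libraries a mean of 79.2 FPKM stood beside a mean count of 944. Whether the values of 0 are failed estimates was not tested. Dixon's test of the highest and lowest library was not applied to groups of 11 and of 3.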

How the results depend on the processing

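No member passed for sex under any alternative, the replicate block included (0 in each direction and experiment; median difference 0.31 in naïve and -0.2 in SNL neurons). With the replicate block the naïve RIN slope had 0 calls by limma, among members and among all tested genes alike, and a member median of -0.09. Under an unadjusted p of 0.05 by limma there were 0 members (21 without the block). The share of all tested genes under that p was not counted for that fit. The block adds a term per replicate and leaves fewer degrees of freedom, so this drop does not describe the members. Same-numbered naïve libraries did not deviate together (r from -0.16 to 0.28 over 11 pairs, with 1 pair over 0.1). Their median r was -0.02, as it was for naïve libraries of different numbers. Over 3 SNL pairs r ran from -0.21 to 0.26, with 2 pairs over 0.1. The SNL median was 0.2 for the same number and -0.09 for different numbers. So few pairs cannot show whether same-numbered SNL libraries share more than a number. Median differences ranged from 0.12 to 0.37 in naïve and -0.38 to 0.00 in SNL neurons over all alternatives, and naïve RIN slopes from -0.2 to -0.07. The median over all tested genes shifted by less than 0.1 under each scaling. Members falling with RIN past the threshold numbered 1 in naïve neurons with no covariate, and 29 after SNL with erythroid markers in place of RIN (rising with them, median 0.15). Leaving out 1 library each gave 0 to 6 in naïve neurons (6 without male replicate 11) and 0 to 2 after SNL (2 without female replicate 3). Signs turned over left-out libraries for Rpl12 (-0.64 to 0.13) between the naïve sexes and Rplp0 (-0.0087 to 0.16) on SNL RIN. Between the SNL sexes they turned for Rpl4 (-0.015 to 0.27) and Rps4l (-0.25 to 0.27). Rpsa on naïve RIN stayed positive over left-out libraries (0.04 to 0.138) and was -0.00061 with no covariate. The naïve sum ranged 3.00-fold, and 1.96-fold as a share without rRNA-like, mitochondrial and globin genes. The naïve median CV was 36.01%, 25.3% without male replicate 11 and 43.6% with median-of-ratios scaling. The causes were not tested.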
